A study of Zea mays with 6 samples.

Results

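Leaves of unirrigated maize at the second sampling (T2 drought) were set against leaves of fully irrigated maize at the first sampling (T1), on 4 of the 6 Affymetrix maize arrays of the study. The T2 drought group was a DKC6575 array and a Tietar array, from field plots that received water to 0% of field capacity after the V6 stage and were sampled at silking (R1). The T1 group was again an array of each variety, from plots kept at 100% of field capacity and sampled at V8. All plots had been fully irrigated up to V6. DKC6575 carries the MON810 insertion, in which the 35S promoter and an HSP70 intron drive the insecticidal protein CryIAb, and Tietar is its near-isogenic conventional counterpart. Leaf portions without the tip and the central vein were taken at the same hour of the day. Each group had 2 arrays, 1 per variety, so the varieties were the only replicates and every difference was taken within a variety, T2 drought minus T1. The paper describes biological replicates of the field leaf samples and, for its field PCR, pools of plants. Nothing in the sources used here says how many plants were combined on an array. Growth stage, irrigation and plot changed together between the groups and cannot be told apart here. The irrigated T2 leaves were not used, so a T2 drought level close to T1 may have been kept throughout or regained, and these cannot be told apart either.

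Between V8 and silking the maize plant turns from building leaves to flowering, and its leaves pass from growth to the export of sugars and nitrogen. Water shortage closes stomata, is signalled by abscisic acid, and is met by solutes such as proline and by chaperones and LEA (late embryogenesis abundant) proteins that protect other proteins. Pollen is shed in the field around silking.

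Each transcript was read by a probe set, a group of short probes on the array, and its signal is the deposited intensity. Of 17621 probe sets without Affymetrix controls, the 10383 whose log2 signals averaged 6 or more (a signal of 64) over the 6 arrays were tested. Every array had been scaled as a whole, yet the arrays differed in shape. At T2 drought the arrays' median signals were 135 (DKC6575) and 141 (Tietar), against 118 and 120 at T1, while the 99th percentile was 9688 and 8876 at T2 drought and 13440 and 12970 at T1. Correspondingly, the median log2 difference depended on brightness. It was 0.13 in DKC6575 and 0.20 in Tietar for the 1590 probe sets with a mean log2 between 6 and 7, and -0.54 and -0.61 for the 254 at 13 or above. The 18 spiked bacterial controls, added in equal amount to every sample, were lower at T2 drought as well, by a median of -0.44 in DKC6575 and -0.52 in Tietar. For this reason the test was repeated after median centring, quantile normalization and cyclic loess of the arrays, and a gene is said here to have risen or fallen only where limma's adjusted p was under 0.05 in all 4 scalings, unless the sentence says otherwise. Log2 differences are given as deposited, with the standard error (SE) of the limma fit. The log2 ratio of the 3-prime to the 5-prime actin probe sets, a sign of RNA integrity, was 4.28 and 4.25 at T2 drought and 4.66 and 4.65 at T1, and its part in the results was not tested.

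With limma on the values as deposited, 2529 probe sets (24.4% of those tested) were higher at T2 drought and 1592 (15.3%) were lower. In all 4 scalings 1379 (13.3%) were higher and 1202 (11.6%) lower. Of the calls as deposited 61.4% were higher, against 38.1% after median centring, 49.3% after quantile normalization and 50.5% after cyclic loess. The median difference of all probe sets was 0.09 as deposited and -0.07 after median centring. At least 2-fold in the same direction in both varieties, 226 probe sets (2.18%) were higher and 87 (0.838%) lower, and all of these were also called by limma. In each variety alone the 2-fold counts were 363 higher and 151 lower in DKC6575, and 433 higher and 190 lower in Tietar. The differences of the varieties had a Pearson's r of 0.81 across the 10383 probe sets, which are not independent replicates and share the scaling of the arrays, and 8257 (79.5%) had the same sign.

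**Figure D1:**
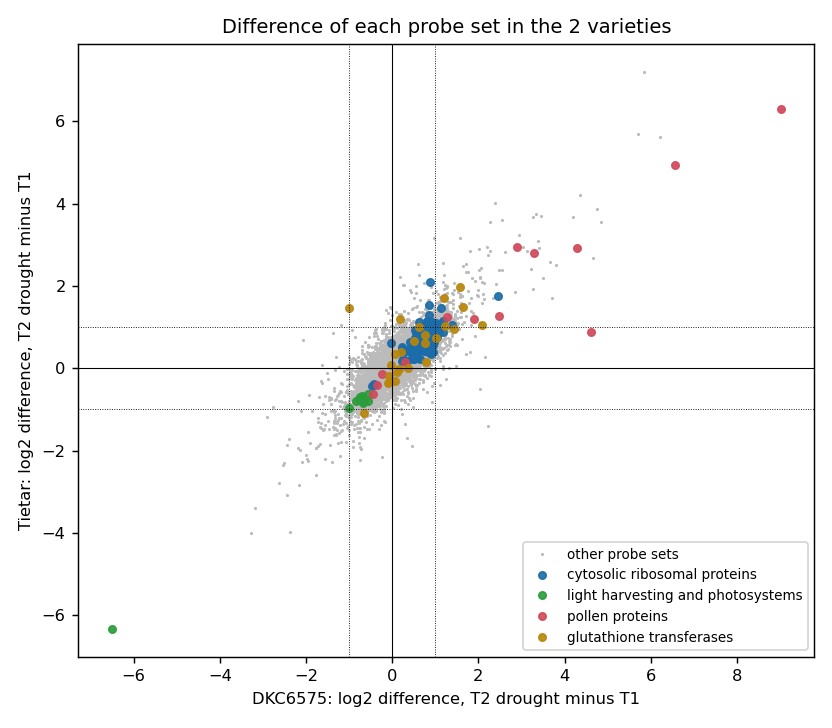
Each point is a tested probe set, with its log2 difference (T2 drought minus T1) in DKC6575 on the horizontal axis and in Tietar on the vertical axis; dotted lines mark 2-fold and colours mark 4 gene lists. The 11 light harvesting and photosystem probe sets (green) lie below 0 in both varieties, 1 of them far from the rest, and ribosomal proteins (blue) lie mostly above 0.

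Many transcripts stood near their T1 level, taken here as no more than 25% apart (0.32 on the log2 scale) in both varieties. Near T1 in this sense were 4184 probe sets (40.3%), and 9000 (86.7%) had a 95% interval of the fitted difference inside 2-fold either way. All 4184 were among these 9000, and 126 of the 4184 were called by limma. Signals of well-measured genes in this group could be nearly identical on paired arrays. The heat shock 70 kDa protein 4, a chaperone, had signals of 3045 and 4366 at T2 drought (DKC6575, then Tietar, here and below) and 3042 and 4334 at T1. The plasma membrane aquaporin pip1e had 4297 and 4136 at T2 drought and 4124 and 4221 at T1. The helicase eIF-4A of translation initiation had 3162 and 3217 at T2 drought and 3318 and 3233 at T1. These 3 genes differed by 0.01, 0.02 and -0.04 on the log2 scale, each with an SE of 0.08. Nearness to T1 was judged on the values as deposited, so the trend with brightness applies here too. Probe sets with a mean log2 between 12 and 13 had median differences of -0.30 in DKC6575 and -0.34 in Tietar. Of the genes called near T1 here and below, pip1e, pip2e, trxh1 and CIPK-like protein 1 had this brightness.

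Names were at hand for only part of the probe sets, and their source bears on every count below. Of the tested probe sets, 697 were named from the study's own table of regulated genes, which was chosen on these arrays, and 634 from the platform annotation alone. Of the 697, 54.1% were called higher as deposited and 23.0% lower. Of the 634, 22.2% were higher and 20.8% lower, and of the 9052 without a name 22.2% and 14.4%. Counts over a gene list therefore are not independent evidence of its direction, and the count among members named by the platform alone or by the table is given beside each list's count of calls. List members are probe sets, and a gene with several enters several times.

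Transcripts of photosynthesis were lower at T2 drought. All 11 tested members of the light harvesting and photosystem list were called lower as deposited, 5 of them in all 4 scalings, and 10 of these 11 were named by the platform alone. Their fitted differences ran from -6.42 to -0.60, with a median of -0.71 in DKC6575 and -0.79 in Tietar. That median was -0.13 after quantile normalization and -0.29 after cyclic loess. The spiked controls with signals over 10000 differed by -0.47 in DKC6575 and -0.58 in Tietar, and 91.3% of all probe sets at a mean log2 of 13 or above were called lower, so most of these members moved about as far as other bright probe sets. The part of this brightness trend in the result was not tested.

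The chlorophyll a-b binding protein 2, an antenna protein of photosystem II, stood apart. Its probe set had signals of 175 and 107 at T2 drought, against 15988 and 8584 at T1, a difference of -6.42 (SE 0.10, adjusted p = 1.2e-13). The T2 drought signals were lower by the largest factor of any named gene that fell. The other 10 members differed by between -0.99 and -0.60. For the brightest probe set of lhcb6, an antenna protein of photosystem II, the signals were 12596 and 11802 at T2 drought and 20365 and 18922 at T1. Another lhcb6 probe set had 4659 and 4294 at T2 drought and 8336 and 7411 at T1, a difference of -0.81 (SE 0.08, adjusted p = 8.2e-06). The photosystem I subunit psad1 (chromosome 5, 3799929 to 3800894 on the B73 assembly) fell too, with 7514 and 6399 at T2 drought and 15146 and 12530 at T1 (-0.99, SE 0.08, adjusted p = 1.3e-06). Psah1, also of photosystem I, fell by 0.77 on the log2 scale.

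Enzymes of the C4 cycle, which concentrates CO2 in the bundle sheath, and of the Calvin cycle moved with the antenna proteins. Of 21 tested members 13 were lower and 2 higher as deposited, and 5 and 2 in all 4 scalings. Among the 16 members named by the platform alone 12 were lower. The median was -0.56 in DKC6575 and -0.65 in Tietar, but -0.09 after quantile normalization. Rubisco activase rca1 (chromosome 4, 1225439 to 1227877), which keeps Rubisco active, fell to 6183 and 5195 at T2 drought, against 10355 and 9312 at T1 (-0.79, SE 0.08, adjusted p = 9.6e-06). A dim probe set of pyruvate, orthophosphate dikinase, which regenerates the CO2 acceptor, had 162 and 479 at T2 drought and 313 and 870 at T1 (-0.91, SE 0.12). Its signals differed more between the varieties than between the groups. Against this direction, PPCK1 (chromosome 5, 223123886 to 223125340), the kinase that phosphorylates phosphoenolpyruvate carboxylase, rose to 6939 and 7766, against 4001 and 4050 at T1 (0.87, SE 0.08, adjusted p = 6.8e-06). The phosphate/phosphoenolpyruvate translocator precursor rose as well, with 461 and 486 at T2 drought and 290 and 255 at T1 (0.80, SE 0.13). Carbonic anhydrase did not pass the test, with 192 and 191 at T2 drought and 208 and 238 at T1 (-0.22, SE 0.15, adjusted p = 0.277).

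Ferredoxins, thioredoxins and their reductases, electron carriers in and outside photosynthesis, included some of the largest falls. The ferredoxin isoform Fd VI (chromosome 6, 160597785 to 160599297) had 428 and 471 at T2 drought, against 2461 and 2395 at T1 (-2.44, SE 0.10, adjusted p = 7.4e-09). Both varieties moved by nearly the same amount. A ferredoxin-NADP reductase precursor fell to 125 and 147, against 351 and 355 at T1 (-1.38, SE 0.15), and the ferredoxin-thioredoxin reductase subunit ftr1 to 3611 and 2755, against 5585 and 5752 (-0.85, SE 0.10). Of the 11 tested members 7 were lower and 3 higher as deposited, and 3 each among the 7 named by the platform alone. Trxh1, a cytosolic thioredoxin, was near its T1 level, with 6557 and 5930 at T2 drought and 6462 and 5497 at T1.

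**Figure D2:**
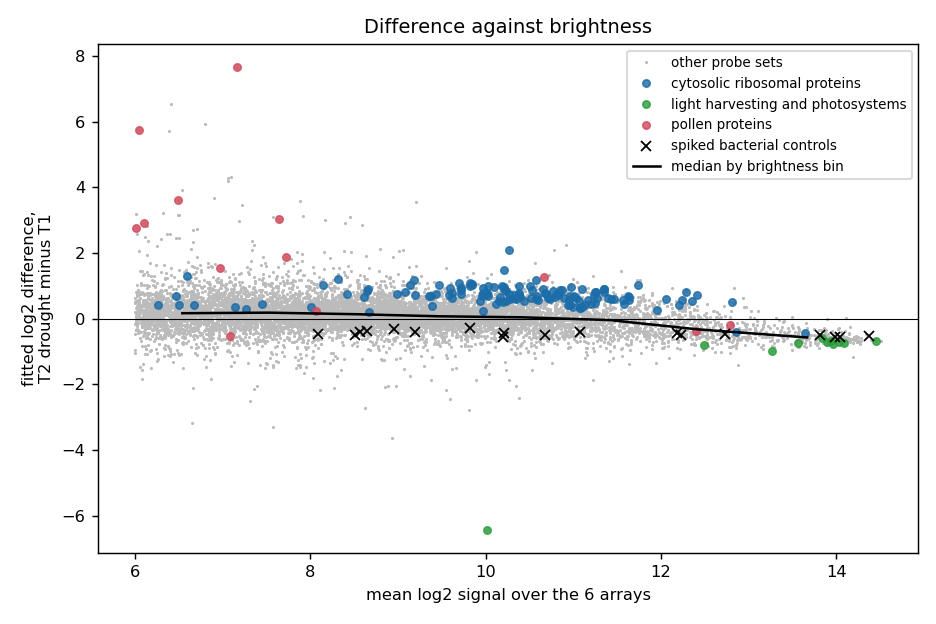
The fitted log2 difference (T2 drought minus T1, vertical axis) is plotted against the mean log2 signal over the 6 arrays (horizontal axis) for every tested probe set, with 3 gene lists in colour, the 18 spiked controls as crosses and the median of each brightness bin as a line. The line falls below 0 above a mean log2 of about 11, the spiked controls lie below 0 throughout, and ribosomal proteins (blue) lie above the line at nearly all levels.

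Cytosolic ribosomal proteins, the structural proteins of the 40S and 60S subunits, were higher at T2 drought. As deposited 121 of 131 tested members were called higher and 2 lower, and 111 were higher in all 4 scalings. Of the 131, 120 took their names from the study's table and 11 from the platform alone, and of those 11, 7 were higher and 2 lower. The median difference was 0.73 in DKC6575 and 0.67 in Tietar, and between 0.54 and 0.69 under the other 3 scalings. The change was mostly less than 2-fold, and 6 members passed 2-fold in both varieties. The largest difference was on a probe set of ribosomal protein L39 (chromosome 5, 222225334 to 222226009). It had 2400 and 1909 at T2 drought and 439 and 561 at T1 (2.11, SE 0.14, adjusted p = 3.4e-07). Another L39 probe set had 2348 and 2274 at T2 drought and 1204 and 1317 at T1 (0.88, SE 0.09). For a probe set of 60S ribosomal protein L7-2 the signals were 1597 and 2583 at T2 drought and 868 and 601 at T1 (1.49, SE 0.20). Another with this title differed by 1.19 (SE 0.13). Acidic ribosomal protein P2a-3, of the stalk that binds elongation factors, rose to 421 and 451, against 162 and 217 at T1 (1.22, SE 0.14). Exceptions were few. A probe set of acidic ribosomal protein P3 had 945 and 1100 at T2 drought and 795 and 947 at T1 (0.23, adjusted p = 0.081). Brighter probe sets with this title rose, by 0.48 (SE 0.09) and 0.62 (SE 0.09). RPS10 had 425 and 432 at T2 drought and 365 and 378 at T1 (0.20, adjusted p = 0.201). The 2 members called lower as deposited, arpp2b and rpl29, were picked out after their values were seen. They were the brightest of those described, arpp2b with 11859 and 10170 at T2 drought and 16316 and 13598 at T1, and were not lower in all 4 scalings.

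Fitted differences of translation factors were at most 0.67 in size. Of 25 tested members 13 were higher and 1 lower as deposited, and 4 were higher in all 4 scalings. Near T1 lay 6 of the 25, against 40.3% of all probe sets. Of the 12 named by the platform alone 4 were higher and 1 lower. Among probe sets titled elongation factor 1 alpha, which brings aminoacyl-tRNA to the ribosome, signals were 2180 and 2192 at T2 drought and 1310 and 1450 at T1 for 1 (0.67, SE 0.09, adjusted p = 9.2e-05) and 5425 and 5136 at T2 drought and 4731 and 5074 at T1 for another (0.11, SE 0.08, adjusted p = 0.331). Near-identical copies of this gene family can share probes. Elongation factor 2 rose to 2352 and 2563, against 1614 and 1828 at T1 (0.52, SE 0.09).

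The tested small heat shock proteins, which hold unfolding proteins in solution, were higher at T2 drought, and their highest T2 drought signals were in Tietar. All 8 tested members were called higher as deposited and 3 in all 4 scalings, and 7 of the 8 were named from the study's table. The median difference was 0.63 in DKC6575 and 1.06 in Tietar. Heat shock protein18f (chromosome 3, 8819932 to 8820870) had 738 and 2519 at T2 drought and 310 and 649 at T1 (1.60, SE 0.14, adjusted p = 4.3e-06). The low molecular weight heat shock protein precursor had 1527 and 3698 at T2 drought and 847 and 1169 at T1 (1.26, SE 0.15). The 18 kda heat shock protein18a rose with 1081 and 2532 at T2 drought and 943 and 1081 at T1 (0.71, SE 0.17, adjusted p = 0.005). The T2 drought signal of DKC6575 equalled the T1 signal of Tietar. A probe set of heat shock protein18c, called as deposited only, was higher in Tietar alone, with 118 and 356 at T2 drought and 122 and 127 at T1. The 3 members below the brightness limit went both ways. Heat shock protein26 of the chloroplast had 68.4 and 84.2 at T2 drought, against 2.88 and 4.10 at T1. The 22.0 kDa class IV heat shock protein had 52 and 88.9 at T2 drought and 42.2 and 38.3 at T1. An hsp20/alpha crystallin family protein was lower, with 18 and 12.8 at T2 drought and 54.2 and 64.1 at T1.

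Of 12 tested large chaperones 5 were higher in all 4 scalings, and 1 of the 5 named by the platform alone was higher. Near T1 lay 5 of the 12, a share like the 40.3% of all probe sets. The members that rose were 3 chaperonins, the disaggregase HSP101 and a co-chaperone, SBA1. Mitochondrial chaperonin-60 (chromosome 5, 32328255 to 32333558) had 461 and 678 at T2 drought and 203 and 214 at T1 (1.42, SE 0.14, adjusted p = 1.0e-05). The HSP101 protein, which pulls aggregates apart, had 663 and 1208 at T2 drought and 339 and 476 at T1 (1.16, SE 0.12). Some HSP70 probe sets stood near T1. Besides the protein 4 above, a probe set of hsp70-5 had 2919 and 3224 at T2 drought and 2923 and 3172 at T1. The heat shock cognate 70 kDa protein 2 had 3894 and 5156 at T2 drought and 5150 and 5026 at T1 (-0.18, SE 0.10, adjusted p = 0.169), so its difference came from DKC6575. HSP70 protein 1, under the brightness limit, had 73.4 and 121 at T2 drought and 34.7 and 27.7 at T1.

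Of 20 tested chaperones of the endoplasmic reticulum, which fold secreted proteins, 11 were called higher as deposited and 10 in all 4 scalings. Among the 13 named by the platform alone 4 were higher, or 30.8%, close to the 24.4% of all probe sets. Near T1 lay 8 of the 20, a share like the 40.3% of all probe sets. Calreticulin2, a calcium-binding lectin chaperone, had 1615 and 1634 at T2 drought and 949 and 876 at T1 (0.83, SE 0.10, adjusted p = 2.6e-05). The lectin chaperone calnexin (CNX) had 1599 and 1901 at T2 drought and 995 and 964 at T1 (0.83, SE 0.10). Binding protein homolog1, the HSP70 of this compartment, rose to 1480 and 1918, against 968 and 1011 at T1 (0.77, SE 0.10). Their T2 drought signals all lay above both T1 signals, which their choice as members that differed most made likely. The disulfide isomerase pdi7 was near T1 on the brighter of its probe sets, with 981 and 1014 at T2 drought and 993 and 947 at T1.

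Dehydrins and LEA proteins went both ways. Of 12 tested members 6 were higher and 3 lower as deposited, with 1 higher of the 4 named by the platform alone. Over all 18 members, 6 of them under the brightness limit, 11 were higher and 3 lower in both varieties. Of all tested probe sets 79.5% had the same sign in both, whichever the direction. The list's medians of 0.09 in DKC6575 and 0.68 in Tietar differed. The abscisic stress protein homolog rose to 4094 and 5141, against 2566 and 2148 at T1 (0.97, SE 0.12, adjusted p = 3.4e-05). HVA22-like protein a rose too, with 1757 and 1809 at T2 drought and 905 and 1086 at T1 (0.85, SE 0.10). The Asr protein, of the same abscisic acid, stress and ripening family name, fell to 3218 and 2741, against 5360 and 5762 at T1 (-0.90, SE 0.09, adjusted p = 1.2e-05). Members of this family thus went both ways. Dehydrin1 was under the brightness limit, with 33.8 and 97.7 at T2 drought and 18.5 and 16.1 at T1. Of the 3 dhn2 probe sets the brighter ones had 100 and 248, and 121 and 149, at T2 drought, against 102 and 152, and 109 and 85, at T1, and neither passed the test (adjusted p = 0.199 and 0.085). In both, DKC6575 was close to its T1 signal.

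Abscisic acid genes were few and mixed. Of the 6 tested, 5 named from the study's table, 2 were higher and 2 lower as deposited. A protein phosphatase 2C, of the class that restrains abscisic acid signalling, rose to 659 and 773, against 225 and 269 at T1 (1.54, SE 0.12, adjusted p = 1.3e-06). Another probe set with this title fell to 2336 and 2151, against 3791 and 4351 at T1 (-0.86, SE 0.09). Viviparous14, the dioxygenase that cleaves carotenoids for abscisic acid synthesis, had 129 and 200 at T2 drought and 105 and 118 at T1 and was called as deposited only (0.52, SE 0.19, adjusted p = 0.043).

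Osmoprotectant genes changed on all 6 tested probe sets, 4 higher and 2 lower in all 4 scalings, with 5 of the 6 named from the study's table. Both pyrroline-5-carboxylate synthetases, which catalyse the committed step to proline, rose. P5cs (chromosome 8, 97448643 to 97459493) had 267 and 359 at T2 drought and 111 and 89.9 at T1 (1.63, SE 0.19, adjusted p = 2.6e-05). The delta 1-pyrroline-5-carboxylate synthetase had 1146 and 1530 at T2 drought and 377 and 546 at T1 (1.54, SE 0.10, adjusted p = 4.3e-07). Methylation of phosphoethanolamine, a step towards phosphocholine and betaine, gave opposite results on its 2 probe sets. The probe set titled phosphoethanolamine N-methyltransferase rose to 322 and 338, against 107 and 112 at T1 (1.59, SE 0.15), and PEAMT fell to 126 and 119, against 419 and 292 at T1 (-1.51, SE 0.16).

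**Figure D3:**
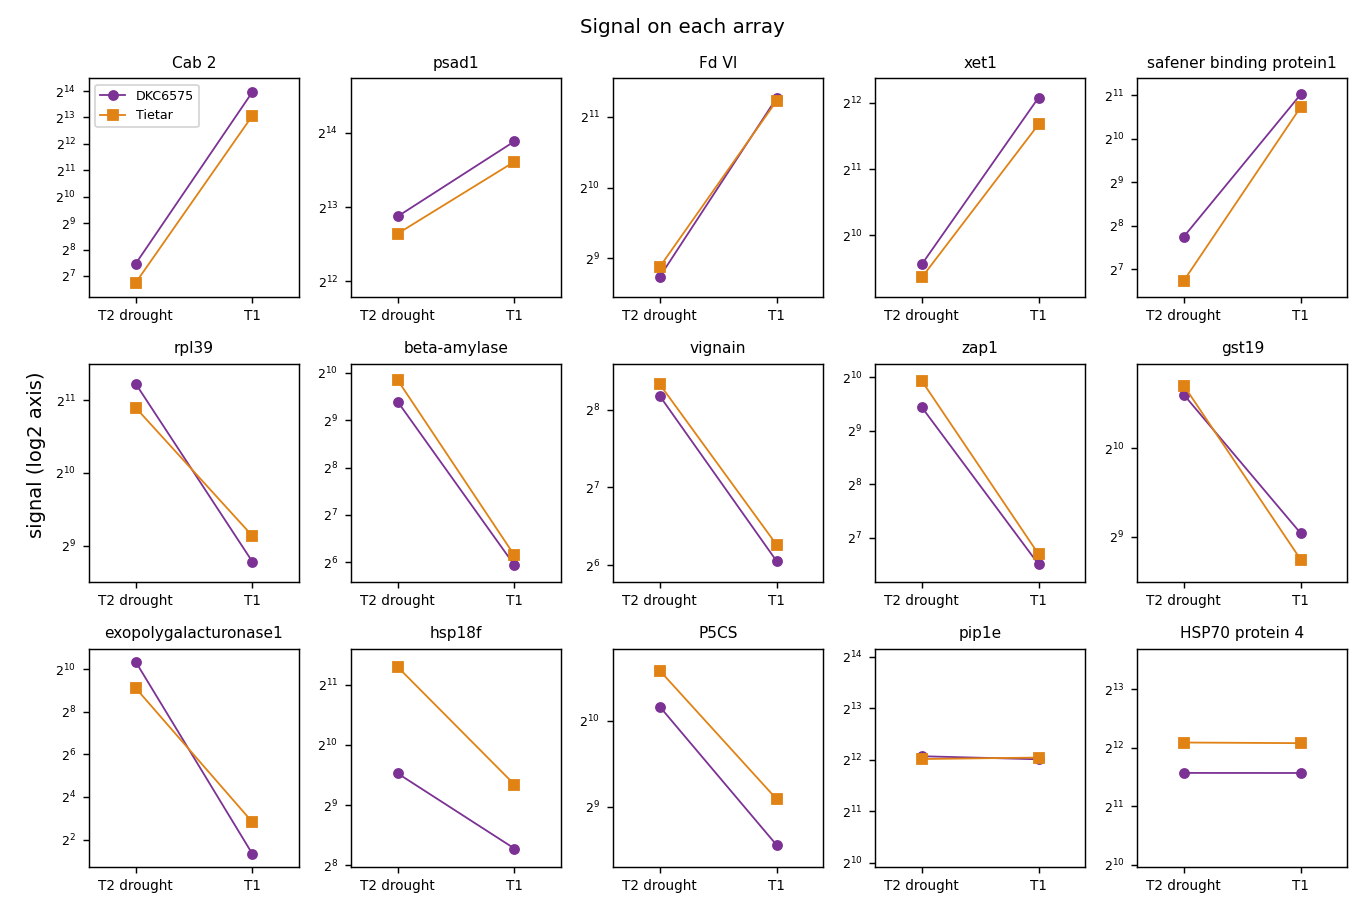
Signals on a log2 axis at T2 drought (left) and T1 (right) are joined within each variety, DKC6575 as circles and Tietar as squares, for 15 named genes, each panel with its own range (Cab 2 is the chlorophyll a-b binding protein 2). The top row holds genes that fell, the middle row and the left of the bottom row genes that rose, and pip1e and HSP70 protein 4 keep level lines.

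Aquaporins, channels for water and small solutes, went both ways, with 8 higher and 8 lower of 27 tested as deposited, 2 and 6 in all 4 scalings. Near T1 lay 8 of the 27, against 40.3% of all probe sets. The 19 named by the platform alone had 6 higher and 4 lower. ZmPIP1-6 (chromosome 9, 7776028 to 7777383) fell to 130 and 132, against 505 and 626 at T1 (-2.10, SE 0.14, adjusted p = 4.3e-07). The plasma membrane intrinsic protein2 rose to 259 and 323, against 111 and 92.1 at T1 (1.51, SE 0.18). The vacuolar tip2a fell to 2697 and 2657, against 4418 and 5339 at T1 (-0.86, SE 0.09), and the NOD26-like ZmNIP2-1 to 1021 and 1343, against 2496 and 2152 (-0.99, SE 0.12). Of the brighter members, pip1e (above) and pip2e, with 4005 and 4267 at T2 drought and 3715 and 4364 at T1, lay near T1.

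Glutathione transferases, which conjugate toxic compounds to glutathione, rose on 11 probe sets in all 4 scalings and fell on 1, of 25 tested. As deposited 13 were higher, and 8 of the 17 named by the platform alone. Gst19 (chromosome 6, 114165820 to 114166896) had 1562 and 1677 at T2 drought and 526 and 428 at T1 (1.77, SE 0.12, adjusted p = 3.4e-07). The brighter gst5 had 4118 and 6061 at T2 drought and 1801 and 1847 at T1 (1.45, SE 0.11). Gst24 and gst3a were near T1, with 638 and 383 at T2 drought and 576 and 385 at T1 for gst24, so the rise did not cover the family. Antioxidant enzymes were lower on 4 and higher on 2 of 9 tested probe sets as deposited, 3 and 2 of the 8 named by the platform alone. The catalase cat2 fell to 1192 and 1132, against 1884 and 2171 at T1 (-0.80, SE 0.10), whereas cat1 rose to 1044 and 915, against 644 and 740 (0.50, SE 0.12). Glutathione reductase gor1 lay near T1, with 2007 and 1940 at T2 drought and 2098 and 1928 at T1.

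Metal genes held changes of opposite sign. Ferritin1 (chromosome 4, 188948771 to 188951197), the plastid iron store, fell to 4935 and 5020, against 12557 and 13608 at T1 (-1.39, SE 0.08, adjusted p = 7.8e-08). This exceeded the -0.30 and -0.34 of probe sets of its brightness, a mean log2 between 12 and 13. The ZIP zinc/iron transport family protein rose to 333 and 299, against 97.3 and 99.5 at T1 (1.68, SE 0.16), and the Metallothionein-like protein type 2 to 470 and 531, against 177 and 169 (1.53, SE 0.14). Zinc transporter 4 had 395 and 223 at T2 drought, with both T1 signals under 64.

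Starch genes included large changes. A beta-amylase, which releases maltose from starch, had 673 and 924 at T2 drought and 61.1 and 70.5 at T1 (3.59, SE 0.15, adjusted p = 7.4e-09). A brighter beta-amylase probe set had 2558 and 2802 at T2 drought and 834 and 828 at T1 (1.69, SE 0.09). Starch branching enzyme1 rose to 348 and 362, against 146 and 136 at T1 (1.33, SE 0.15), and phosphoglucomutase 2 fell to 2492 and 2236, against 5582 and 6346 (-1.33, SE 0.09). The list as a whole had 3 higher and 3 lower of 10 tested, with 2 lower of the 5 named by the platform alone, and the pyrophosphorylase subunit bt2 and the debranching enzyme zpu1 lay near T1. The plastid glucose-6-phosphate/phosphate translocator 2 fell to 306 and 468, against 1303 and 2250 at T1 (-2.18, SE 0.11). Of sucrose genes 3 were higher and 6 lower of 11 tested as deposited, 3 and 2 of the 6 named by the platform alone. The sucrose synthase sus2 rose to 774 and 794, against 373 and 431 at T1 (0.97, SE 0.11), and invertase2 fell to 161 and 341, against 497 and 439 (-1.0, SE 0.22, adjusted p = 0.003).

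Nitrogen assimilation had 5 lower and 2 higher of 12 tested as deposited, 4 and 2 in all 4 scalings, and 2 lower and 1 higher of the 7 named by the platform alone. Nitrite reductase (chromosome 4, 183572704 to 183576240), the plastid enzyme that makes ammonium, fell to 1178 and 1355, against 3029 and 3412 at T1 (-1.35, SE 0.09, adjusted p = 3.5e-07). The siroheme uroporphyrinogen methyltransferase1, of the pathway to its cofactor siroheme, fell to 1085 and 2091, against 4694 and 4256 at T1 (-1.57, SE 0.17). Alanine aminotransferase 2 rose to 712 and 727, against 162 and 227 at T1 (1.91, SE 0.14, adjusted p = 7.7e-07). The glutamine synthetase gln3 had 88.7 and 115 at T2 drought, against 32.4 and 51.5 at T1.

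Senescence-linked proteases and their cystatin inhibitors were higher. As deposited 14 of 19 tested members were higher and 2 lower, 12 and 2 in all 4 scalings, and 4 of the 6 named by the platform alone were higher. Over all 24 members, those under the brightness limit included, 18 were higher and 2 lower in both varieties. Of all tested probe sets 79.5% had the same sign in both, whichever the direction. The list's median difference was 0.50 in DKC6575 and 0.54 in Tietar. Vignain, a cysteine protease, had 290 and 321 at T2 drought and 66.5 and 76.9 at T1 (2.09, SE 0.17, adjusted p = 2.0e-06). Senescence-associated protein 15 rose to 311 and 473, against 201 and 183 at T1 (1.00, SE 0.17). Yet the brightest member, cysteine protease1, lay near T1 with 10687 and 8849 at T2 drought and 10231 and 9548 at T1. Its fitted difference of -0.02 as deposited became 0.45 after quantile normalization and 0.32 after cyclic loess, where it was called higher.

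Pollen transcripts were high in the T2 drought leaf samples. Exopolygalacturonase1 (chromosome 6, 109520601 to 109522006), a pectin-degrading enzyme of pollen, had signals of 1307 and 555 at T2 drought, against 2.51 and 7.06 at T1. Profilin 2, an actin-binding protein of pollen, had 335 and 200 at T2 drought, against 3.55 and 6.51 at T1. For the Zea m 1 allergen, a pollen expansin, signals were 267 and 170 at T2 drought and 13.8 and 22.3 at T1. In all 3 the DKC6575 array was the higher at T2 drought, and limma called each higher in all 4 scalings. Each passed the brightness limit only through T2 arrays, so these calls are no independent support. T1 signals this dim give no reliable fold. Over all 25 members of the pollen list, 12 of them under the brightness limit, 19 had both T2 drought signals above both T1 signals and 4 had both below. How often this holds over all probe sets was not counted. Of the 13 members that passed the limit, partly through their T2 drought signals, 11 were named from the study's table. The 14 pollen markers summed to 4640 and 2981 at T2 drought and 461 and 905 at T1.

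Markers of other cells were followed in the same way. Those of mesophyll summed to 132222 and 121199 at T2 drought and 223330 and 209354 at T1, with 11 of 14 tested called lower as deposited. The bundle sheath markers me3 and rbcs1 summed to 18104 and 16353 at T2 drought and 28809 and 27203 at T1. These markers are bright photosynthesis genes, so the trend with brightness applies to them too. Of 16 seed markers 13 were under 64 on all 4 arrays. The 4 root markers summed to 428 and 773 at T2 drought and 2501 and 1699 at T1, mostly the beta-D-glucosidase precursor. For dividing cells the sums were 1320 and 1424 at T2 drought and 1221 and 1398 at T1, and the meristem gene kn1 was between 11.7 and 15 on all 4 arrays. In bulk tissue fewer cells of a type and less RNA per cell cannot be told apart.

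Cell wall genes went both ways. Of 19 tested members 9 were lower and 5 higher in all 4 scalings, with 1 lower of the 3 named by the platform alone, and 31 of the 50 members were under the brightness limit. Those that rose were exopolygalacturonase1, both probe sets of the pollen-specific arabinogalactan protein BAN102, alpha-expansin 3 and a polygalacturonase. Alpha-expansin 3 had 512 and 259 at T2 drought and 24.9 and 13.9 at T1. The brighter BAN102 probe set at T2 drought had 492 and 349, against 50.1 and 50.3 at T1. With T1 signals under 64, exopolygalacturonase1, alpha-expansin 3 and this BAN102 probe set passed the brightness limit only through T2 arrays. The pollen marker sums above moved with these genes, and their part in the result was not tested. Among those that fell, xyloglucan endotransglycosylase homolog1 (chromosome 5, 55773909 to 55775526), which cuts and rejoins xyloglucan, had 757 and 660 at T2 drought and 4330 and 3274 at T1 (-2.41, SE 0.09, adjusted p = 7.4e-09). Extensin, a wall glycoprotein, fell to 195 and 131, against 664 and 788 at T1 (-2.17, SE 0.17). Tubulins and actins had 6 lower and 3 higher of 13 tested as deposited, 6 and 2 of the 12 named by the platform alone. The beta-tubulin tub4 fell to 532 and 593, against 1268 and 1285 at T1 (-1.18, SE 0.10), and tub6 rose to 186 and 120, against 74.5 and 53.5 (1.24, SE 0.20).

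Among flowering regulators, the MADS box protein zap1 (chromosome 2, 242277432 to 242286715) rose to 696 and 980, against 90.4 and 103 at T1 (3.10, SE 0.14, adjusted p = 1.3e-08). It belongs to the family of AP1-like factors that specify floral organs. M15 protein, also of the MADS box family, rose to 2381 and 2269, against 1627 and 1368 at T1 (0.64, SE 0.09). The T2 drought signals of both were above both T1 signals, which their choice as members that differed most made likely. MADS67 and zmm19 lay near T1, with 2475 and 2544 at T2 drought and 2511 and 2691 at T1 for MADS67. Of the 27 members of the flowering and clock list 20 were under the brightness limit.

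Other transcription factors and signalling genes were mostly lower where they were called. ERF, NAC, WRKY, MYB and bZIP factors had 2 higher and 6 lower of 19 tested as deposited, with 1 lower of the 4 named by the platform alone. NAC domain-containing protein 68 rose to 779 and 875, against 443 and 333 at T1 (1.1, SE 0.14, adjusted p = 4.2e-05). The R2R3MYB-domain protein fell to 138 and 148, against 250 and 273 at T1 (-0.87, SE 0.15). A homeobox-leucine zipper protein ATHB-6, of a family tied to abscisic acid responses in Arabidopsis, had 162 and 362 at T2 drought and under 64 on both T1 arrays. Heat shock factors, calcium sensors and kinases had 4 higher and 7 lower of 27 tested as deposited, with 1 lower of the 8 named by the platform alone. Near T1 lay 12 of the 27, a share like the 40.3% of all probe sets. CIPK-like protein 1, the brightest of these, had 5490 and 5278 at T2 drought and 5308 and 5248 at T1. By contrast all 3 probe sets of the SNF1-related protein kinase regulatory subunit beta-1, of the kinase that senses carbon supply, fell. Its brightest probe set had 106 and 68.4 at T2 drought and 201 and 232 at T1 (-1.34, SE 0.21, adjusted p = 2.6e-04). On the other probe sets the Tietar T2 drought signals were 32.9 and 39.6, under 64. Those passed the brightness limit partly through the other arrays.

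Histone and chromatin genes had 21 higher and 3 lower of 46 tested as deposited, and 14 and 3 in all 4 scalings. Near T1 lay 15 of the 46, against 40.3% of all probe sets. Those named by the platform alone had 10 higher of 28. The nucleosome assembly factor nfa104 rose to 329 and 376, against 131 and 146 at T1 (1.34, SE 0.15, adjusted p = 1.6e-05). The HMG-like nucleosome/chromatin assembly factor D rose to 1467 and 1788, against 759 and 857 at T1 (1.01, SE 0.10). The linker histone his1a missed the threshold, with 1824 and 1815 at T2 drought and 1647 and 1469 at T1 (0.23, adjusted p = 0.070). Replication marker pcna1 had 306 and 298 at T2 drought and 284 and 300 at T1.

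Hormone, wound and defence genes held single large changes. Cis-zeatin O-glucosyltransferase1, which stores the cytokinin cis-zeatin as a glucoside, fell to 174 and 152, against 551 and 541 at T1 (-1.75, SE 0.13, adjusted p = 1.2e-06). Response regulator 7, of the cytokinin relay, fell to 169 and 152, against 279 and 366 at T1 (-0.99, SE 0.16). In jasmonate synthesis a 12-oxo-phytodienoic acid reductase rose to 157 and 215, against 52.1 and 82.8 at T1 (1.49, SE 0.19), while the brighter opr8 probe set lay near T1. For the allene oxide cyclase aoc1 a dim probe set lay near T1, and the brighter one, looked up after its values were seen, rose to 550 and 610, against 425 and 389 at T1 (0.51, SE 0.12). The beta-D-glucosidase precursor, which frees benzoxazinoids from their glucosides, fell to 275 and 575, against 2081 and 1312 at T1 (-2.05, SE 0.26, adjusted p = 5.2e-05). Benzoxazinless1, at the start of benzoxazinoid synthesis, had 72.2 and 32.3 at T2 drought and 134 and 83.9 at T1 (-1.13, SE 0.24, adjusted p = 0.002). Its Tietar T2 drought signal lay under 64, so it passed the brightness limit partly through the other arrays. Pathogenesis related protein-1 rose to 652 and 734, against 301 and 277 at T1 (1.26, SE 0.12, adjusted p = 8.9e-06). The barley mlo defense gene homolog1 fell to 125 and 119, against 325 and 317 at T1 (-1.40, SE 0.15). In flavonoid and lignin synthesis the O-methyltransferase ZRP4 fell to 112 and 132, against 272 and 322 at T1 (-1.28, SE 0.15). There 2 of 9 tested lay near T1, against 40.3% of all probe sets.

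Large falls outside the lists completed the named genes. Herbicide safener binding protein1 had 215 and 107 at T2 drought and 2074 and 1694 at T1 (-3.63, SE 0.15, adjusted p = 7.4e-09). Multidrug resistance associated protein 1, an ABC transporter, fell to 76.0 and 52.1, against 339 and 369 at T1 (-2.49, SE 0.19). The thiamine biosynthetic enzyme, which makes the thiazole ring of vitamin B1, fell to 563 and 577, against 1650 and 2657 at T1 (-1.88, SE 0.13). Hemoglobin 2, a plant hemoglobin outside nodules, fell to 70.6 and 46.1, against 279 and 214 at T1 (-2.10, SE 0.19). In these 4 genes the T2 drought and T1 signals did not overlap, which their choice as 2-fold falls in both varieties made likely. For hemoglobin 2 and multidrug resistance associated protein 1 the Tietar T2 drought signal lay under 64. Both probe sets passed the brightness limit partly through the other arrays.

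**Figure D4:**
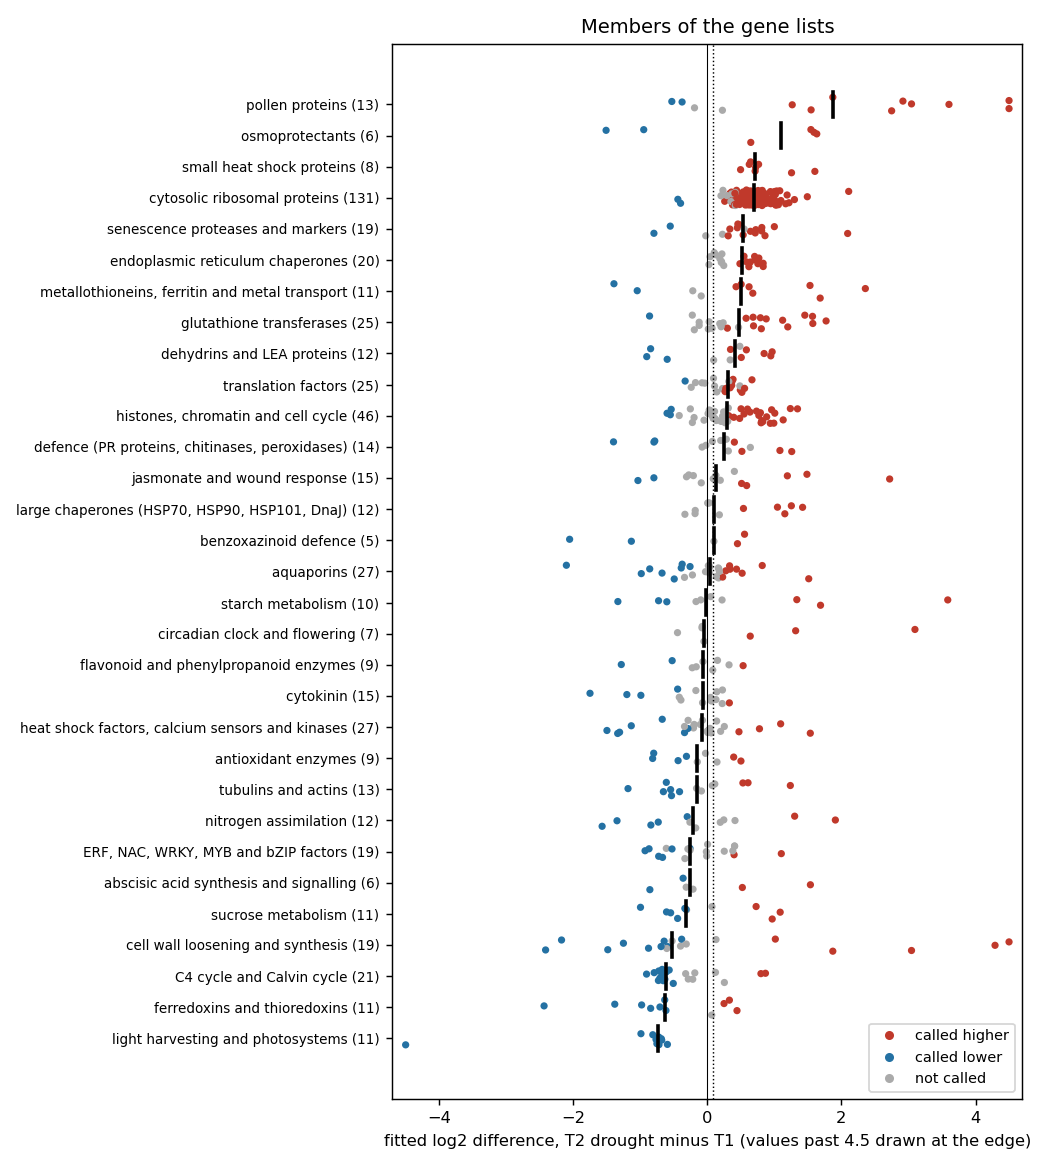
Fitted log2 differences (T2 drought minus T1, horizontal axis) of the tested members of the 31 gene lists, red where called higher, blue where called lower and grey where not called, with a bar at each list's median, the number tested in brackets and a dotted line at the median of all probe sets. Ribosomal proteins and senescence proteases lie mostly right of 0 and light harvesting wholly left, while 3 members past 4.5 are drawn at the edge.

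Only 4 arrays entered the test, and the fit had 1 residual degree of freedom, so precision rested on the spread shared over all probe sets. No test could compare the varieties' differences. Without the T1 array of DKC6575 the calls as deposited dropped to 646 higher and 262 lower.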

How the data were processed

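Leaf RNA was hybridized to Affymetrix maize arrays, 1 array per variety and condition. The methods name RMA for extraction and Partek for analysis. The deposited table holds linear intensities with the same 2% trimmed mean, close to 500, on every array and no detection calls, so the stated extraction could not be matched to them. No array was left out. The number of arrays limits the precision, and p-values measure the spread between the varieties' arrays only, which may be technical.

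Intensities were log2-transformed, and 113 AFFX controls of the 17734 probe sets were dropped. Those with a mean log2 of at least 6 over the 6 arrays (10383, 1 reporter control among them) entered a limma fit (version 3.58.1, R 4.3.3) with variety (pairing the arrays) and condition as factors, an intensity trend and Benjamini-Hochberg adjustment over all 10383. The fit used the 4 T2 drought and T1 arrays and had 1 residual and 11.87 prior degrees of freedom. The T2 controls entered only the brightness filter and the fit on 6 arrays. The pairing comes from the variety named in the labels. Counts at 2-fold and near T1 (within 1.25-fold) in both varieties carry no test. Python 3.11.15 (numpy 2.4.6, pandas 2.3.3, matplotlib 3.10.9) made tables and plots. The fit was also tested on simulated data.

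Names came from the platform annotation (1452 probe sets with 1 symbol, 1 with several, which was not named) and from single gene titles in a shortened copy of the study's table of regulated genes (1002, titles only). Its fold changes were not used. In all 2032 probe sets had a name, and 1377 a place on the RefSeq assembly Zm-B73-REFERENCE-NAM-5.0, where coordinates are gene spans. No sequences are shown. The 31 gene lists were found by patterns in titles and symbols, with 35 wrong matches left out by name. Cell type markers were those of mesophyll, bundle sheath, pollen, seed, root and dividing cells. The gene lists and members were chosen with earlier results of these data known. Named genes are the 15 largest rises and 15 largest falls that were called and 2-fold in both varieties, from each list at most 4 members that differed most and at most 3 of the brightest near T1, and genes the paper names, with 1 named gene per probe set. Some of these are given by count only. Where both signals of a group were under 64, signals are given without a fold.

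Alternatives were median centring, quantile normalization, cyclic loess, no filter, a filter at a mean log2 of 8 or over the 4 arrays, signals below 64 set to 64, 1 probe set per gene, no trend, no replicate block, a fit on 6 arrays, fold limits of 1.5 and 3, tolerances of 1.1 and 1.5, and each array left out. Added after seeing the data were scaling to the spiked controls, and no filter together with no trend.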

Additional observations from a re-analysis of the deposited data

Results flagged for a closer look

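Opposite changes of at least 2-fold in the 2 varieties were rare. There was 1 probe set higher in DKC6575 and lower in Tietar, and there were 2 probe sets lower in DKC6575 and higher in Tietar, among the 10383 tested. The probe set with a name was gst13, a glutathione transferase, with signals of 44.7 (DKC6575) and 154 (Tietar) at T2 drought and 89.4 and 55.4 at T1, log2 differences of -1.0 and 1.47. The difference between the varieties was not tested, since each has 1 array per condition.

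The defence list (PR proteins, chitinases and peroxidases) had a median log2 difference of -0.33 in DKC6575 and 0.46 in Tietar over its 14 tested members. Of these, 4 moved by over 25% in opposite directions, all lower in DKC6575 and higher in Tietar, and were picked out after their values were seen. Pathogenesis related protein-5 had 1938 and 2309 at T2 drought and 2428 and 1398 at T1, and PRm 3 had 2062 and 2800 at T2 drought and 2705 and 1923 at T1. In both, the variety with the higher signal changed between the groups. This difference was not tested either.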

How the results depend on the processing

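Calls as deposited depended on the scaling and on each array. Higher calls numbered 1475 after median centring and 7180 with scaling to the spiked controls, against 2529, and lower calls 2392 and 409, against 1592. With no filter and no trend limma called 0 higher and 0 lower (2010 and 1438 at an unadjusted p under 0.05, lowest adjusted p 0.252). Leaving out 1 array, unpaired and with the lone array of its group assumed to vary like the other group, gave 646 to 1532 higher and 262 to 1172 lower: without the T1 array of DKC6575 646 and 262, of Tietar 957 and 459, without the T2 drought array of DKC6575 1532 and 1172, of Tietar 1201 and 1007. In the fit with no replicate block (the pairing by variety) 1918 were higher and 1242 lower, and 18 of the named calls were lost.

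At 2-fold in both varieties 695 were higher with no filter, 79 with a filter at 8, 141 after median centring, 144 after quantile normalization, 149 after cyclic loess, 987 with spiked control scaling, 884 at 1.5-fold, 66 at 3-fold and 363 to 433 in single varieties, against 226. Lower were 530 with no filter, 54 with a filter at 8, 140 after median centring, 27 with spiked control scaling, 434 at 1.5-fold, 23 at 3-fold and 151 to 190 in single varieties, against 87. Near T1 were 1700 with spiked control scaling, 1239 within 1.1-fold, 7409 within 1.5-fold and 5497 to 5699 in single varieties, against 4184.

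Few named genes changed sign. The 3 ABP3 probe sets, bright and lower as deposited (-0.41, -0.55, -0.53), had 0.005, 0.014 and 0.045 after quantile normalization, cysteine protease1 turned to 0.45 after it and 0.32 after cyclic loess, and heat shock protein18c was at -0.078 without the T2 drought array of Tietar. Without the T1 array of DKC6575 57 of the named calls were lost.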
